A study of Mus musculus with 32 samples.

Results

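The genes described here are 27 members of the cholesterol synthesis pathway and its transcriptional control by SREBP2, chosen by name and role from 35523 genes with transcripts in the liver data of Nudt7-/- mice. They are 19 enzymes of the route from acetyl-CoA to cholesterol, 4 regulators of SREBP2 and 4 further target genes of the same factor. Liver RNA was sequenced from 32 mice of a line backcrossed onto C57BL/6J, 4 in each of 8 groups. The groups were KO males on the Western diet (WD), KO males on the control diet (CD), WT males on the WD, WT males on the CD, and the same 4 groups of females. The WD supplied 41% of its energy as fat and held 0.2% cholesterol, while the CD supplied 10% as fat and held 0% cholesterol. Both diets were fed from 6 weeks of age, and the mice were killed between 17 and 20 weeks. KO mice lacked exons 3 and 4 of Nudt7, the gene of a peroxisomal enzyme that degrades CoA, in the whole body. The line came from CRISPR/Cas9 editing of FVB zygotes and goes back to 1 mosaic founder. It was backcrossed onto C57BL/6J for 6 generations, and the WT mice were littermates. Some mice of the study were fed and others fasted before harvest, and the labels do not say which state these livers were in.

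Cholesterol is built from acetyl-CoA through mevalonate, isoprenoid diphosphates, squalene and lanosterol, and nearly every enzyme of the route is a transcriptional target of SREBP2. SREBP2 is held in the endoplasmic reticulum membrane by SCAP and the INSIG proteins when sterols are plentiful, and travels to the Golgi to be cleaved and activated when they are scarce. The liver is a main site of this control, since it both makes cholesterol and receives it from the diet.

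Library totals ranged from 10140048 to 15825078 estimated counts. All 27 genes passed the filter on low counts in every comparison. In each sex and diet every KO library had less Nudt7 transcript than every WT library. Hepatocyte markers summed to between 49048 and 97498 CPM (counts scaled to normalized library size) and none of the 6 was at 0. Transcripts of pancreatic acinar cells summed to between 0.144 and 4981 CPM, with 4 libraries above 100 CPM. These were replicates 2 and 4 of WT females on the CD, replicate 3 of KO females on the CD and replicate 4 of WT females on the WD.

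The proximal promoters of 23 of the 27 genes were found among the RefSeq windows of GRCm38.p6. Over the 250 bases before each start site, the letters CCAAT, the box bound by NF-Y, occurred on either strand in 20 of the 30 windows of these genes (66.7%), against 33.8% of all 32851 windows. The GC box GGGCGG occurred on either strand in 21 of the 30 windows (70%), against 32.7% of all windows. The sterol regulatory core TCACNCCAC occurred in 1 of the 30 windows, that of Hmgcs1, against 1.05% of all windows. The 6 sequences below were chosen after the values were seen, to set genes called lower on the WD in at least 1 male genotype (Hmgcs1, Mvd, Nsdhl and Insig1) beside the pair with log2 fold changes nearest to 0 in males (Insig2 and Ggps1). Bases up to the annotated gene start are printed 5′ to 3′ on the strand of the gene, with CCAAT and TCACNCCAC matches in capitals (the reverse strand of CCAAT reads ATTGG).
Hmgcs1 (chr13:119690101-119690350, plus strand): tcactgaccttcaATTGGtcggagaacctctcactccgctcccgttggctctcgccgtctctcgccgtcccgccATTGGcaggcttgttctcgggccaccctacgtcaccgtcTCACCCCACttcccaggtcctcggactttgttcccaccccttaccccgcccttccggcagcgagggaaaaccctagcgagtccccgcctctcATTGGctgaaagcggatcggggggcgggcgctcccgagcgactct
Mvd (chr8:122443423-122443672, minus strand): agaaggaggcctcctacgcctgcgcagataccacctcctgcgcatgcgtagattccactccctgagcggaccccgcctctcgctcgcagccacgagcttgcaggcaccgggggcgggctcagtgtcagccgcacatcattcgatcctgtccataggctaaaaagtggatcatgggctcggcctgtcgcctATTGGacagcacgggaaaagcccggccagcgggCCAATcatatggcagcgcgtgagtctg
Nsdhl (chrX:72918271-72918520, plus strand): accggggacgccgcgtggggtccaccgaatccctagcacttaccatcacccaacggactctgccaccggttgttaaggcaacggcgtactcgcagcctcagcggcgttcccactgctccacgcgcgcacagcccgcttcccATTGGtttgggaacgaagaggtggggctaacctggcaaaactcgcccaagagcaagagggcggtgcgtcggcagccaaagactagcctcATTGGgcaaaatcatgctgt
Insig1 (chr5:28071162-28071362, plus strand): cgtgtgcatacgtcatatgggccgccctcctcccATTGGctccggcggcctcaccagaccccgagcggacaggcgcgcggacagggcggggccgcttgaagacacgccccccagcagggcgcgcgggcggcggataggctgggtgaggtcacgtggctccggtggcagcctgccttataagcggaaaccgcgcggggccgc
Insig2 (chr1:121332590-121332839, minus strand, 1 of 3 windows of this gene): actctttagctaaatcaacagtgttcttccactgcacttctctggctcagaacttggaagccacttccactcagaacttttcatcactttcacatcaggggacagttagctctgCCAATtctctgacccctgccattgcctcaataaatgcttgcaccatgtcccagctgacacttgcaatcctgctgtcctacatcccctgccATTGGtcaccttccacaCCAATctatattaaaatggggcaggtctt
Ggps1 (chr13:14063489-14063738, minus strand): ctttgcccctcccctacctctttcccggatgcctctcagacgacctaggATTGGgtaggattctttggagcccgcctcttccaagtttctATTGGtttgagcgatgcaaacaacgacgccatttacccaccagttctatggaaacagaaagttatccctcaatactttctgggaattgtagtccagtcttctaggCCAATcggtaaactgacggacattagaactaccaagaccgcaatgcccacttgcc
Of the 3 windows of Insig2, the one with the most CCAAT and TCACNCCAC matches was printed, and the others held no CCAAT box. The printed windows of Insig2 and Ggps1 each held 3 CCAAT boxes, as many as that of Hmgcs1. Mvd held 2, Nsdhl 2 and Insig1 1. These other genes had 1 window each, so the count of Insig2 was not set on equal terms. The match TCACCCCAC in Hmgcs1 began 137 bases before the start site. A match describes the letters only, and no binding was measured.

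Levels of different genes were compared as TPM, transcript abundances that are scaled to transcript length. In WT males on the CD, Sc5d, the sterol C5 desaturase, was the most abundant of the 27 at 462 ± 44.1 TPM (SD, n = 4). Insig2 followed at 454 ± 95.0 TPM, Fdps at 421 ± 103 TPM, Insig1 at 321 ± 37.0 TPM and Ebp at 252 ± 23.9 TPM. The least abundant were Ggps1 at 7.61 ± 1.22 TPM, Mvk at 17.3 ± 2.40 TPM and Srebf2 at 21.6 ± 4.78 TPM. The first 3 genes in this order did not differ beyond their spread, while Ggps1 lay below all others. In WT females on the CD the same 5 genes led, with Sc5d at 466 ± 161 TPM, and Ggps1 was again lowest at 8.44 ± 3.80 TPM. Summed over the 19 enzymes, the level was 580.1 ± 129 TPM in KO males on the WD, against 1874 ± 617 TPM in KO males on the CD. WT males had 699.5 ± 174 TPM on the WD, against 2276 ± 439 TPM on the CD. In KO females the sum was 1152 ± 406 TPM on the WD, against 1932 ± 399 TPM on the CD, and in WT females it was 1609 ± 961 TPM on the WD, against 2081 ± 706 TPM on the CD. Every male library on the WD lay below every male library on the CD, whereas the female diet groups overlapped.

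**Figure D1:**
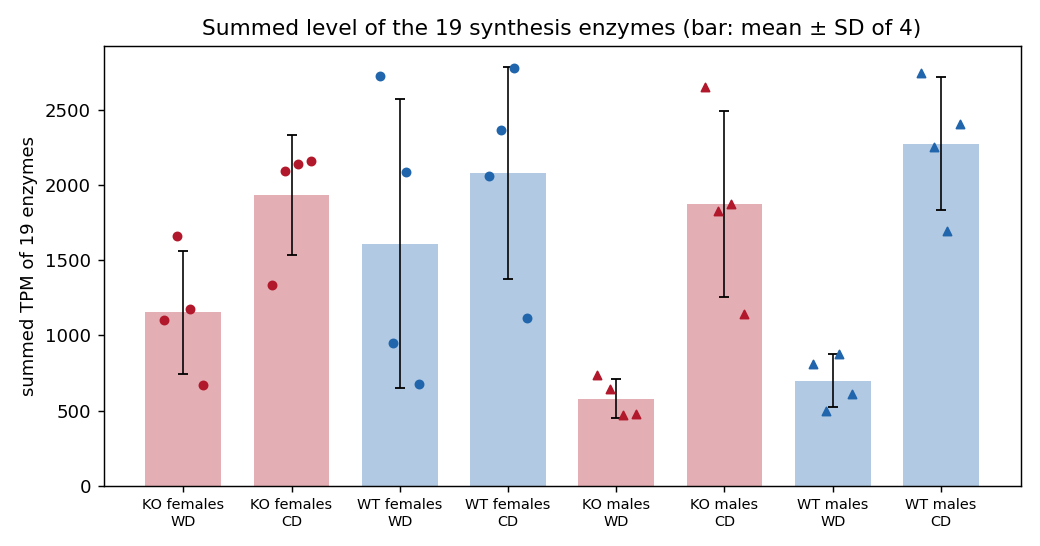
Summed TPM of the 19 synthesis enzymes (y axis) in the 8 groups (x axis), with bars for the mean of 4 libraries, error bars for the SD and points for single libraries (KO red, WT blue, females circles, males triangles). The male libraries on the WD lie between 470.8 and 874.4 TPM and those on the CD between 1144 and 2748 TPM, while WT females on the WD run from 679.1 to 2724 TPM.

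The first comparison asked what the WD did to the pathway in males. In KO males 20 of the 27 genes were lower on the WD and none was higher in edgeR's quasi-likelihood test with Benjamini-Hochberg adjustment over all genes, where 0.967% of 12407 genes tested were called lower. In WT males 23 of the 27 were lower and none was higher, where 6.78% of 12235 genes were called lower. Of the 19 synthesis enzymes, 15 fell in KO males and 18 in WT males. The median log2 fold change of the 27 genes was −2.13 in KO males and −1.89 in WT males, and that of all genes tested was 0.008 in both. Every WD library lay below every CD library for 23 genes in KO males and 24 in WT males, against 5.69% of all genes in KO males and 10.7% in WT males. The count in WT males was between 20 and 23 when any 1 library was left out. In KO males it was between 12 and 21, with 12 without CD replicate 2 or WD replicate 3 and 13 without CD replicate 3. In every fit without 1 library 12 of the 20 calls in KO males remained, and those of Acat2, Idi1, Fdps, Fdft1, Lss, Nsdhl, Ebp and Insig1 were lost in some. In WT males 19 of the 23 calls remained, and those of Fdft1, Msmo1, Sc5d and Aacs were lost in some. In whole liver, fewer cells of a type and less RNA per cell cannot be told apart.

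**Figure D2:**
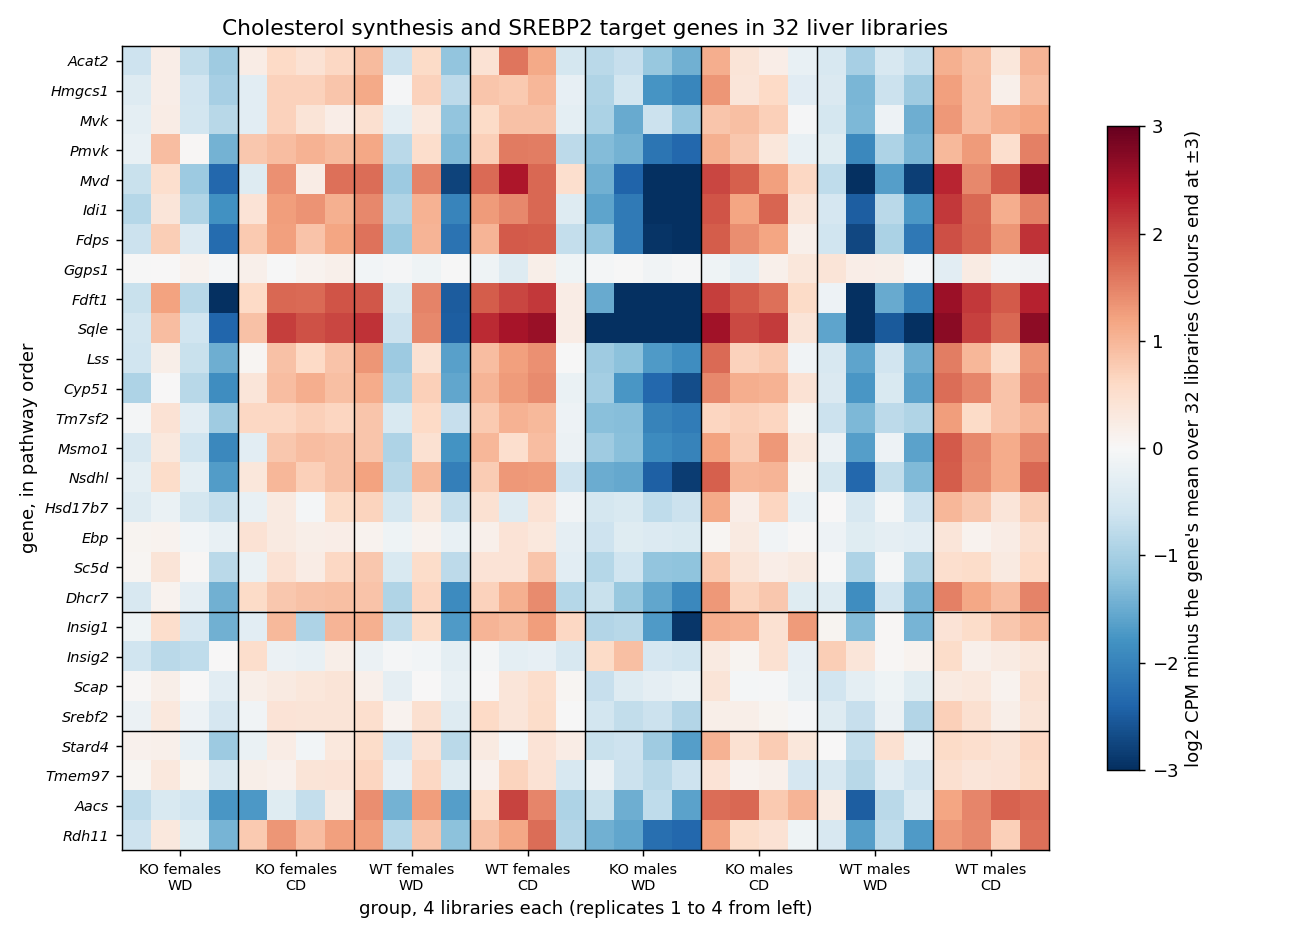
Level of each of the 27 genes (y axis, in pathway order, with lines before the regulators and before the other targets) in each of the 32 libraries (x axis, 4 per group), as log2 CPM minus the gene's mean over all libraries; red is above the mean, blue below, and colors end at ±3. Male libraries on the WD are blue for nearly all genes apart from Ggps1 and Insig2, and single female libraries on the WD, such as replicate 4 of both genotypes, are as blue over most genes.

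The mevalonate steps turn acetyl-CoA into isopentenyl diphosphate. Mvd, which makes isopentenyl diphosphate by decarboxylation and lies on chromosome 8 at 122433601 to 122443422 (GRCm38), had 3.43, 1.77, 0.850 and 1.09 CPM in KO males on the WD, against 37.1, 32, 21.8 and 14.2 CPM in KO males on the CD. WT males had 5.47, 1.09, 2.98 and 1.32 CPM on the WD, against 45.1, 25.3, 33.3 and 57.7 CPM on the CD. All WD libraries were far below all CD libraries in both genotypes. The log2 fold change was −3.86 (SE 0.46, adjusted p = 0.00678) in KO males and −3.94 (SE 0.50, adjusted p = 0.00657) in WT males. Mvd is 8.30 Mb from Nudt7 on the same chromosome. Pmvk and Mvk, the kinases that phosphorylate mevalonate, fell less, with log2 fold changes of −2.32 and −1.67 in KO males and −2.15 and −1.89 in WT males. Acat2, the thiolase of the first step, fell by 1.42 in KO males and by 1.5 in WT males on the log2 scale. Hmgcs1, the HMG-CoA synthase, fell in WT males with a log2 fold change of −1.67 (SE 0.27, adjusted p = 0.00837). In KO males its value was −1.77 (SE 0.44, adjusted p = 0.0850), although no WD library reached a CD library.

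The prenyl steps join isopentenyl units into squalene. Idi1, the isopentenyl diphosphate isomerase on chromosome 13 at 8885501 to 8892451, had 26.1, 17.8, 8.27 and 6.21 CPM in KO males on the WD, against 288, 178, 260 and 100 CPM on the CD. WT males had 54.7, 14, 44.3 and 23.6 CPM on the WD, against 340, 256, 165 and 221 CPM on the CD. The diet groups were apart in both genotypes, and the mean on the WD was 7.07% of that on the CD in KO males and 13.9% in WT males. Fdps, the farnesyl diphosphate synthase on chromosome 3 at 89093588 to 89101959, had 53.0, 27.3, 15.5 and 8.81 CPM in KO males on the WD, against 420, 311, 269 and 133 CPM on the CD. WT males had 78.8, 17.8, 61.4 and 27 CPM on the WD, against 456, 399, 297 and 535 CPM on the CD. Its log2 fold changes were −3.42 (SE 0.64, adjusted p = 0.0452) in KO males and −3.18 (SE 0.52, adjusted p = 0.0141) in WT males. Fdft1, the squalene synthase on chromosome 14 at 63145150 to 63179578, had 10.0, 2.30, 1.39 and 0.419 CPM in KO males on the WD, against 119, 101, 89.4 and 42.0 CPM on the CD. The lowest of these values stood for 5 estimated counts. In KO males on the WD, a mean of 12.6% of Fdft1 counts (range 0 to 50.4%) were assigned to ENSMUST00000054963, against 78.8% on the CD. In WT males its mean share was 50% on the WD, against 80.1% on the CD. In WT males Fdft1 had 25.7, 2.27, 9.99 and 6.99 CPM on the WD, against 168, 123, 101 and 140 CPM on the CD. The mean on the WD was 4.03% of that on the CD in KO males (log2 fold change −4.61, SE 0.81, adjusted p = 0.0413) and 8.46% in WT males (−3.59, SE 0.65, adjusted p = 0.0197).

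The branch enzyme Ggps1 makes geranylgeranyl diphosphate, which serves protein prenylation and not sterols. It lies on chromosome 13 at 14050659 to 14063488 and had 12.8, 13.3, 12.4 and 13 CPM in KO males on the WD, against 12.1, 10.8, 14.7 and 16.8 CPM on the CD. In WT males it had 17.3, 15.2, 15.1 and 12.9 CPM on the WD, against 10.7, 15.7, 12.5 and 12.4 CPM on the CD. The diet groups overlapped, and the log2 fold change was −0.06 (SE 0.14) in KO males and 0.24 (SE 0.13) in WT males. Of 12 other genes of the isoprenoid branch, none was called in KO males and 1 was higher in WT males, where 6.94% of all genes were called higher. This was Pggt1b, a subunit of the enzyme that prenylates proteins, by 0.45 on the log2 scale (SE 0.12, adjusted p = 0.0276). The list's median log2 fold change was −0.05 in KO males and 0.06 in WT males, against 0.008 over all genes in both.

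The sterol steps run from squalene to cholesterol. Sqle, the squalene epoxidase and a flux-limiting step of the pathway, had the lowest fold change of all 27 genes. It lies on chromosome 15 at 59315077 to 59331192 and had 2.23, 0.844, 0.618 and 0.839 CPM in KO males on the WD, against 107, 73.7, 80.0 and 24.4 CPM on the CD. The WD values stood for 28, 11, 8 and 10 estimated counts. In KO males on the WD, a mean of 42% of Sqle counts (range 0 to 91.1%) were assigned to the coding transcript ENSMUST00000022977. Its mean share was 94.8% in KO males on the CD and 97.9% in WT males on the WD. In WT males Sqle had 6.26, 1.41, 3.27 and 1.42 CPM on the WD, against 121, 76.9, 61.5 and 119 CPM on the CD. The lowest CD library was above the highest WD library in both genotypes by a wide margin. The log2 fold change was −5.96 (SE 0.62, adjusted p = 0.00534) in KO males and −4.98 (SE 0.50, adjusted p = 0.00316) in WT males, so that the WD mean was 1.59% of the CD mean in KO males and 3.27% in WT males.

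Nsdhl, a dehydrogenase of C4 demethylation on chromosome X at 72918557 to 72958514, had 10.1, 9.75, 5.18 and 3.94 CPM in KO males on the WD, against 98.0, 56.5, 57.5 and 29.8 CPM on the CD. WT males had 19.5, 5.55, 16.9 and 11.3 CPM on the WD, against 99.8, 75.3, 60.6 and 93.6 CPM on the CD. The diet groups were apart, and the log2 fold change was −3.05 (SE 0.45, adjusted p = 0.0191) in KO males and −2.63 (SE 0.38, adjusted p = 0.00837) in WT males. Lss, Cyp51, Tm7sf2 and Msmo1, which cyclize squalene epoxide and trim the sterol ring, fell by between 2.13 and 2.84 on the log2 scale in KO males and by between 1.83 and 2.33 in WT males. Tm7sf2, a C14 reductase, had the smallest p of the 27 genes in both genotypes (adjusted p = 0.00137 in KO males and 0.000656 in WT males). Msmo1 is on chromosome 8, 49.42 Mb from Nudt7. Hsd17b7, the ketoreductase, and Dhcr7, the last reductase shown here, fell in WT males by 1.00 and 2.22, and their values in KO males were −1.10 (adjusted p = 0.0640) and −1.96 (adjusted p = 0.0534).

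Ebp and Sc5d shift and add ring double bonds. Ebp, on chromosome X at 8185329 to 8193512, had 115, 138, 132 and 129 CPM in KO males on the WD, against 182, 212, 164 and 180 CPM on the CD. WT males had 159, 138, 146 and 142 CPM on the WD, against 228, 191, 207 and 246 CPM on the CD. The groups were narrow and apart, and the log2 fold change of −0.51 (SE 0.11, adjusted p = 0.0369) in KO males and −0.56 (SE 0.10, adjusted p = 0.00627) in WT males passed the test. Sc5d, on chromosome 9 at 42251595 to 42264256, had 360, 432, 286 and 280 CPM in KO males on the WD, against 1118, 857, 752 and 787 CPM on the CD. In WT males it had 641, 345, 621 and 349 CPM on the WD, against 924, 956, 779 and 978 CPM on the CD. It fell by 1.36 (SE 0.18, adjusted p = 0.00346) in KO males and by 0.88 (SE 0.21, adjusted p = 0.0243) in WT males on the log2 scale, with the diet groups apart in both.

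**Figure D3:**
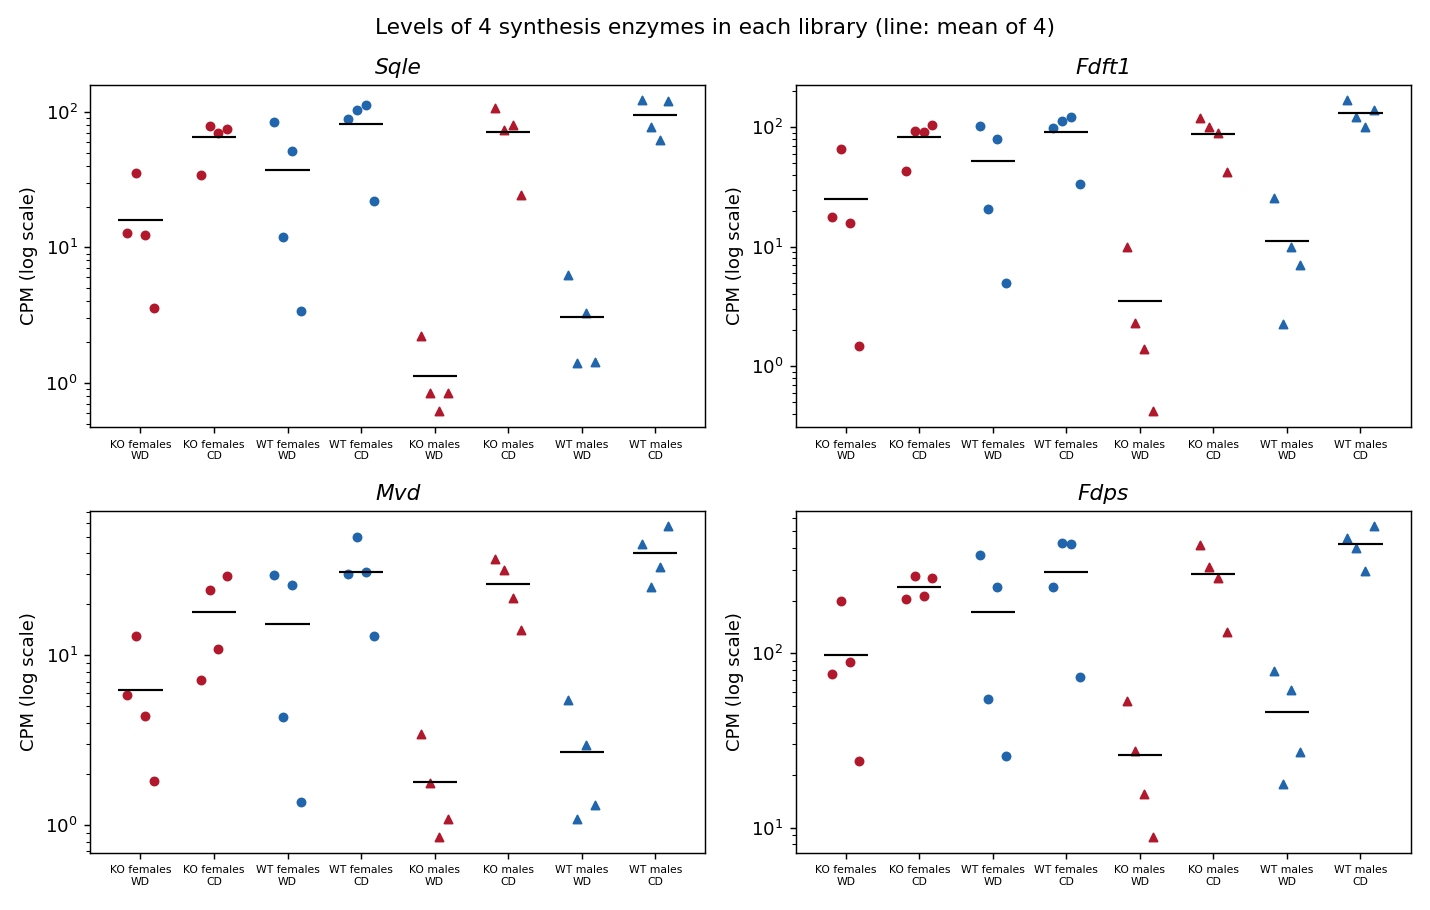
CPM (y axis, log scale) of Sqle, Fdft1, Mvd and Fdps in the 8 groups (x axis); points are single libraries (KO red, WT blue, females circles, males triangles) and lines are means of 4. Male libraries on the WD lie below all male libraries on the CD for each gene, and in WT females on the WD replicates 1 and 3 lie far above replicates 2 and 4.

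Of the 4 regulators, 2 fell in KO males and 2 in WT males, with medians of −0.59 and −0.77 on the log2 scale. Srebf2, the gene of SREBP2 itself on chromosome 15 at 82147181 to 82205379, had 33.7, 29.4, 31.2 and 26.8 CPM in KO males on the WD, against 55.7, 55.5, 51.6 and 47.5 CPM on the CD. In WT males it had 37.5, 30.5, 43.5 and 26.8 CPM on the WD, against 80.9, 68.9, 55.7 and 64.1 CPM on the CD. The groups were apart, with log2 fold changes of −0.78 (SE 0.10, adjusted p = 0.00298) in KO males and −0.95 (SE 0.16, adjusted p = 0.00564) in WT males. Scap, the escort that carries SREBPs to the Golgi and lies on chromosome 9 at 110333288 to 110384950, had 70.4, 86.3, 94.5 and 99.0 CPM in KO males on the WD, against 149, 108, 111 and 97.3 CPM on the CD. These groups overlapped by 1 library, with a log2 fold change of −0.40 (SE 0.15, adjusted p = 0.198). In WT males Scap had 76.1, 92.3, 103 and 88.3 CPM on the WD, against 136, 141, 121 and 156 CPM on the CD, and fell by 0.60 (SE 0.11, adjusted p = 0.00743).

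Insig1 encodes the sterol-regulated retention protein that is itself an SREBP target, and lies on chromosome 5 at 28071363 to 28078662. It had 192, 201, 110 and 47.1 CPM in KO males on the WD, against 762, 734, 487 and 861 CPM on the CD. In WT males it had 375, 143, 364 and 136 CPM on the WD, against 470, 520, 624 and 713 CPM on the CD. The diet groups were apart in both genotypes. The log2 fold change was −2.36 (SE 0.43, adjusted p = 0.0360) in KO males and −1.18 (SE 0.39, adjusted p = 0.0894) in WT males. The call in KO males held in 3 of 8 fits without 1 library, at adjusted p of up to 0.0932, and in 6 of 8 other alternatives. The difference between these effects was −1.18 (SE 0.75, adjusted p = 0.566). Insig2, the other retention protein on chromosome 1 at 121304353 to 121332589, had 546, 683, 258 and 241 CPM in KO males on the WD, against 442, 383, 503 and 309 CPM on the CD. In WT males it had 607, 468, 375 and 390 CPM on the WD, against 537, 404, 432 and 459 CPM on the CD. The groups overlapped, and the log2 fold change was 0.09 (SE 0.34) in KO males and 0.02 (SE 0.15) in WT males. Across the 8 groups, between 71.0% and 76.4% of Insig2 counts were assigned on average to ENSMUST00000003818, and nearly all others to ENSMUST00000071064. Of 9 other genes of SREBP processing and sterol sensing, none was called in KO males and 1 was higher in WT males, against 6.94% of all genes. This was Erlin1, a factor of sterol-dependent protein degradation in the endoplasmic reticulum, by 0.35 (SE 0.09, adjusted p = 0.0211). The list's median was 0.02 in KO males and 0.10 in WT males.

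**Figure D4:**
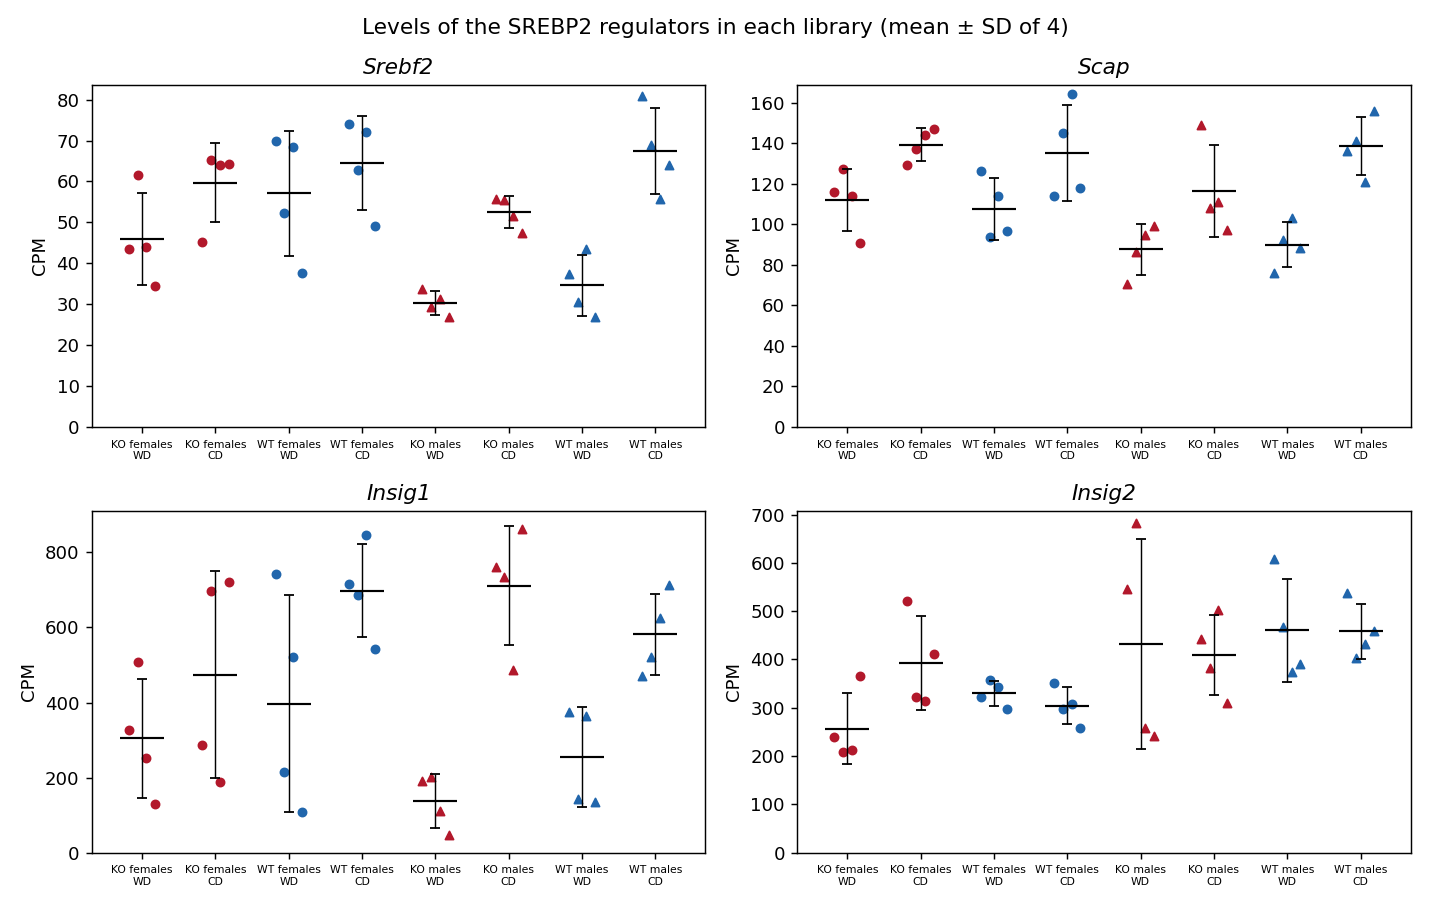
CPM (y axis) of Srebf2, Scap, Insig1 and Insig2 in the 8 groups (x axis); points are single libraries (KO red, WT blue, females circles, males triangles), and lines with bars are the mean ± SD of 4. Srebf2 in male libraries lies between 26.8 and 43.5 CPM on the WD and between 47.5 and 80.9 CPM on the CD, while Insig2 overlaps between the diets.

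Of the other targets, Rdh11, a retinol dehydrogenase, and Aacs, the cytosolic acetoacetyl-CoA synthetase that feeds ketone bodies into lipid synthesis, fell in both male genotypes. Their log2 fold changes were −2.45 and −2.40 in KO males and −2.36 and −2.13 in WT males. The call of Aacs in WT males (adjusted p = 0.0419) held in 2 of 8 fits without 1 library, at adjusted p of up to 0.109, and in 6 of 9 other alternatives. Stard4, a cytosolic sterol transporter, fell by 1.61 in KO males, and its value in WT males was −0.56 (adjusted p = 0.0955). Tmem97, a membrane protein of sterol transport, fell by 0.98 in WT males, and its value in KO males was −0.61 (adjusted p = 0.136). The difference between the genotypes in the diet effect was −1.04 for Stard4 (SE 0.40, adjusted p = 0.310). None of the 27 genes passed the test of that difference in males, where 0.0591% of 13539 genes did, and 1 had an unadjusted p under 0.05. In females none passed either, where 0% of all genes did and 1 of the 27 had an unadjusted p under 0.05. DESeq2 called none of the 27 in either sex.

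Lists of neighboring pathways were counted in the same fits. Of 12 genes of SREBP1 and lipogenesis, 2 were lower in KO males, against 0.967% of all genes, and 9 in WT males, against 6.78% of all genes, with medians of −1.87 and −2.10 on the log2 scale. Acss2, the cytosolic acetyl-CoA synthetase, fell by 2.52 in KO males and by 2.44 in WT males. Of 13 genes of LXR targets and sterol export, 4 were higher in KO males, against 1.64% of all genes. In WT males 4 were higher, against 6.94% of all genes, and 1 was lower, against 6.78%. Abcg5 and Abcg8, the partner subunits of the canalicular sterol exporter, rose by 1.94 and 1.96 in KO males and by 1.99 and 1.79 in WT males. In KO females, where 0.0779% of all genes were called higher, Abcg8 rose by 1.13 (adjusted p = 0.0293). In WT females, where 0.0236% of all genes were called higher, no gene of this list was called and Abcg8 had a log2 fold change of 0.90 (adjusted p = 0.450).

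Markers of other cell types were set beside these results. Adipocyte markers summed to between 37.6 and 104 CPM in KO males on the WD, against 6.31 to 8.97 CPM on the CD, and to between 16 and 67.0 CPM in WT males on the WD, against 9.53 to 16.3 CPM on the CD. Cfd, an adipokine, had 18.7 to 95.7 CPM in KO males on the WD, against 0 to 0.247 CPM on the CD, and 7.4 to 26.3 CPM in WT males on the WD, against 0 to 1.51 CPM on the CD. Fabp4, a lipid carrier, had 8.47 to 19.5 CPM in KO males on the WD, against 6.22 to 8.4 CPM on the CD, and 8.65 to 31.7 CPM in WT males on the WD, against 9.53 to 13.3 CPM on the CD. The defining markers Adipoq, Plin1 and Lep stayed at 0.168 CPM or less in every KO male library on the WD. In WT males on the WD each of these was at 0 in 3 of 4 libraries, and they reached 3.3, 4.44 and 1.32 CPM in the other. Hepatocyte markers summed to between 49048 and 74497 CPM in KO males on the WD, against 71401 to 95317 CPM on the CD, and to between 62392 and 71035 CPM in WT males on the WD, against 69866 to 84711 CPM on the CD. Their part in the diet result was not tested.

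**Figure D5:**
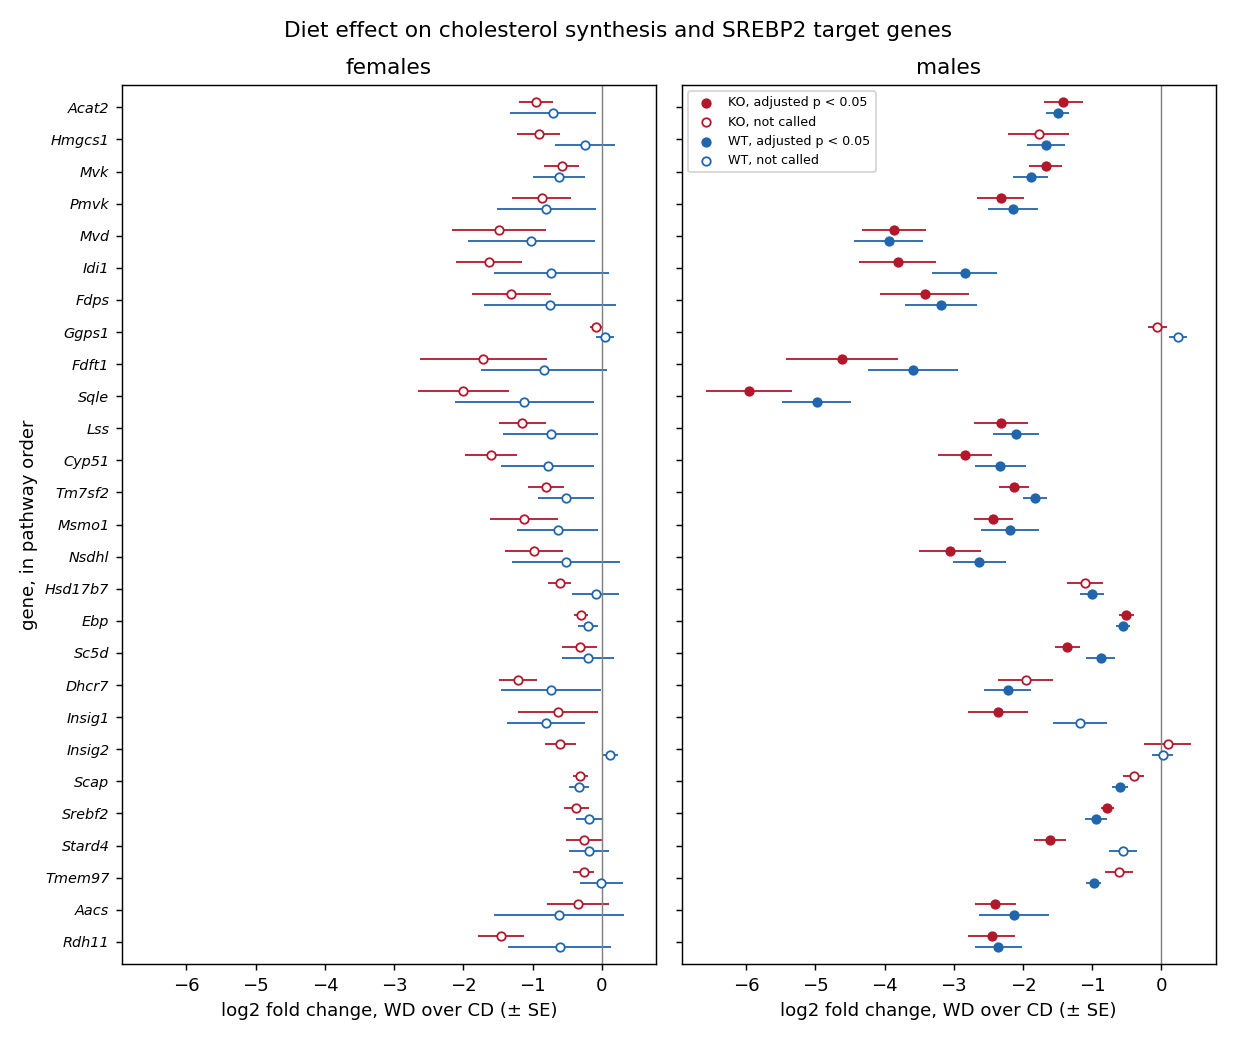
Log2 fold change of each gene (y axis, in pathway order) on the WD over the CD (x axis, with SE) in females (left) and males (right), with KO in red above WT in blue and filled points for adjusted p under 0.05. In males 20 genes in KO and 23 in WT are filled and all of these lie below 0, while in females no point is filled and 27 in KO and 25 in WT lie below 0.

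The same comparison in females gave smaller values and no call. In KO females none of the 27 genes passed edgeR's test, where 0.0467% of 12840 genes were called lower, but all 27 log2 fold changes were below 0 with a median of −0.87, against −0.003 over all genes. A total of 14 had an unadjusted p under 0.05, and DESeq2 called 8 lower, or 5 with length offsets. In edgeR the count was 1 without WD replicate 2 or without WD replicate 4. Every WD library lay below every CD library for 9 of the 27, against 3.29% of all genes. In WT females none passed edgeR's test, where 0.055% of 12737 genes were called lower. There 25 of the 27 were below 0 with a median of −0.62, 1 had an unadjusted p under 0.05, DESeq2 called none, and no gene had its diet groups apart, against 2.43% of all genes. The median in WT females was −1.09 without WD replicate 1, −0.36 without WD replicate 2, −0.32 without WD replicate 4 and −0.40 without CD replicate 2.

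Sqle had 12.8, 35.2, 12.4 and 3.56 CPM in KO females on the WD, against 34.1, 79.1, 70.0 and 75.0 CPM on the CD. In WT females it had 83.5, 11.9, 51.0 and 3.37 CPM on the WD, against 88.1, 103, 112 and 21.9 CPM on the CD. The groups overlapped in both genotypes. KO replicate 2 on the WD was higher than KO replicate 1 on the CD. WT replicates 1 and 3 on the WD were above WT replicate 4 on the CD, but below WT replicates 1, 2 and 3 on the CD. The log2 fold change was −2 (SE 0.66, adjusted p = 0.388) in KO females and −1.12 (SE 1.00, adjusted p = 0.784) in WT females. Cyp51, the lanosterol demethylase, had 36.4, 69.6, 38.6 and 19 CPM in KO females on the WD, against 88.3, 131, 148 and 130 CPM on the CD, without overlap. Its log2 fold change was −1.60 (SE 0.38, adjusted p = 0.220). Insig2 had 240, 209, 213 and 365 CPM in KO females on the WD, against 522, 322, 314 and 411 CPM on the CD. In WT females it had 323, 357, 343 and 298 CPM on the WD, against 352, 298, 307 and 259 CPM on the CD. Its log2 fold changes were −0.60 (SE 0.22, adjusted p = 0.387) and 0.12 (SE 0.12, adjusted p = 0.806). Ggps1 stayed between 12.1 and 14.2 CPM in all 8 female libraries on the WD.

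In WT females on the WD, the median SD of the 27 genes was 1.15 on the log2 scale, against 0.19 over all genes, and 98.4% of genes had a smaller SD. It was 0.62 in KO females, 0.47 in KO males and 0.61 in WT males on the WD, and between 0.29 and 0.57 in the groups on the CD. Averaged over the 27 genes after centering, the 4 libraries stood at 0.94, −0.60, 0.64 and −1.27 on the log2 scale. For 25 of the 27 genes replicates 1 and 3 were above replicates 2 and 4, and Ggps1 and Insig2 were the exceptions. In KO females on the WD the corresponding means were −0.38, 0.28, −0.43 and −1.31, and replicate 4 was the lowest library for 26 of the 27 genes. On the CD, WT females stood at 0.74, 0.98, 1.09 and −0.25 and KO females at 0.14, 0.71, 0.51 and 0.78. Replicate 4 was the lowest library for 23 genes in the WT females and replicate 1 for 22 genes in the KO females. Among males, KO replicate 4 on the CD was the lowest of its group for 22 genes. Acinar transcripts stood at 372 CPM in WT replicate 4 and at 0.673 CPM in WT replicate 2 on the WD, and these were the pair of low libraries. Their part in the spread was not tested. Without the 4 libraries above 100 CPM of acinar transcripts, an alternative chosen after seeing the data, no gene was called for the diet in WT females.

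Across the 32 libraries, 16 of the 19 enzymes correlated with the mean of the other members at r = 0.93 to 0.99, and Hsd17b7 and Ebp did at 0.85. Ggps1 and Insig2 stood apart at −0.17 and 0.10. After removing group means, Nsdhl had the highest value at 0.99 and Ggps1 the lowest at −0.10. These values are descriptions over 32 libraries that differ in diet, sex, genotype and depth. Those taken before removing group means include the differences between groups. Among the genes reported here, the 10 outside the list with the most similar pattern were Mmab, Chrna4, Pstpip2, Acly, Fasn, Acss2, Erg28, Acacb, Prss8 and Echdc1, with r between 0.921 and 0.963. Mmab, which acts in vitamin B12 metabolism, lies next to Mvk on the opposite strand. Acly, Fasn, Acss2 and Acacb act in fatty acid synthesis.

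The next comparisons set females against males. On the WD, 5 of the 27 genes were higher in KO females than in KO males and none was lower, where 4.23% of 12708 genes were called higher. These were Ebp, Sc5d, Sqle, Srebf2 and Tm7sf2. Sqle stood between 3.56 and 35.2 CPM in KO females on the WD, against 0.618 to 2.23 CPM in KO males on the WD, without overlap and with a log2 fold change of 3.81 (SE 0.84, adjusted p = 0.0366). Ebp had 186, 188, 166 and 152 CPM in KO females on the WD, against 115, 138, 132 and 129 CPM in KO males, with a log2 fold change of 0.42 (SE 0.10, adjusted p = 0.0263). Sc5d had 681, 846, 671 and 371 CPM in KO females, against 360, 432, 286 and 280 CPM in KO males, where 1 female library lay within the male range, with a log2 fold change of 0.91 (SE 0.24, adjusted p = 0.0359). Srebf2 was higher by 0.59 (adjusted p = 0.0368) and Tm7sf2 by 1.44 (adjusted p = 0.0482). The count was between 0 and 13 when 1 library was left out, with 13 without replicate 4 of the KO females and 0 without their replicate 1 or 3 or replicate 3 or 4 of the KO males. It was 1 without replicate 2 of the KO females, 3 without replicate 1 of the KO males and 2 without their replicate 2. Of 5 Kupffer cell markers, none was at 0 in any group and 1 was called higher in KO females on the WD. They summed to between 293 and 486 CPM there, against 202 to 333 CPM in KO males on the WD. Their part in the sex differences was not tested.

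In WT mice on the WD none of the 27 genes passed edgeR's test between the sexes, where 4.81% of 12524 genes were called higher in females. An unadjusted p under 0.05 was found for 9 of the 27, against 3304 of all 12524 genes. DESeq2 called 6 of the 27, and its share over all genes is not given here. The median log2 fold change of the 27 was 1.02, against 0.90 in KO mice. The count was 5 without replicate 4 of the WT females, which also held acinar transcripts. The Kupffer cell markers, with 1 of 5 called higher, summed to between 278 and 483 CPM in WT females on the WD, against 198 to 320 CPM in WT males on the WD. On the CD the direction of the medians was the opposite, at −0.13 in KO mice and −0.29 in WT mice. None of the 27 passed in KO mice on the CD, where 3.22% of 12566 genes were called lower in females. There 2 of the 27 had an unadjusted p under 0.05, against 2747 of all 12566 genes, and DESeq2 called 2. Aacs came closest, with 14.4, 36.8, 29.0 and 56.6 CPM in KO females on the CD, against 152, 157, 81.5 and 95.1 CPM in KO males, without overlap (log2 fold change −1.83, SE 0.43, adjusted p = 0.0508). In WT mice on the CD 1 gene was lower in females, where 1.14% of 12505 genes were. This was Insig2, with 352, 298, 307 and 259 CPM in WT females, against 537, 404, 432 and 459 CPM in WT males, without overlap. Its log2 fold change of −0.58 (SE 0.13, adjusted p = 0.0479) was not called when any 1 library was left out, at adjusted p between 0.0586 and 0.136.

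The difference between the sexes in the diet effect was tested over all 32 libraries, as the mean effect in females minus that in males. It was above 0 for 25 of the 27 genes, with a median of 1.19 against −0.005 over all genes. An unadjusted p under 0.05 was found for 22 of the 27, against 1591 of all 13539 genes. After adjustment 1 gene passed, where 0.0591% of 13539 genes were called higher. This was Sqle, whose diet effect was less negative in females by 3.92 (SE 0.80, adjusted p = 0.0312). Sqle was still called in 18 of 32 fits that left out 1 library. The count was 5 without replicate 4 of the WT females on the WD and 2 without their replicate 2 or without replicate 4 of the KO females on the WD. It was 0 without any of 14 other libraries. DESeq2 called 7.

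The last comparisons set KO against WT livers. None of the 27 genes passed edgeR's test in males on the CD, males on the WD, females on the CD or females on the WD, where 0.00814%, 0.0162%, 0.0314% and 0.0156% of genes did in either direction. The numbers with an unadjusted p under 0.05 were 5, 4, 0 and 0 of the 27. Over all genes they were 1197 of 12289, 1194 of 12319, 876 of 12753 and 981 of 12824. DESeq2 called none of the 27 in any of these comparisons. The medians of the 27 genes were −0.35 and −0.51 in males and −0.11 and −0.48 in females, on the CD and the WD. Averaged over the 4 sex and diet groups, the KO minus WT value was below 0 for 26 of the 27 genes, with a median of −0.39 against 0.002 over all genes, and none passed, where 0.0886% of genes did. There 8 of the 27 had an unadjusted p under 0.05, against 1231 of all 13539 genes, and DESeq2 called none of the 27.

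Aacs had the lowest mean genotype value, −0.90 (SE 0.31, adjusted p = 0.382). It had 28, 34.5, 31.2 and 14 CPM in KO females on the WD, against 125, 17.7, 113 and 15.1 CPM in WT females on the WD. On the CD it had 14.4, 36.8, 29.0 and 56.6 CPM in KO females, against 68.0, 193, 131 and 24.8 CPM in WT females. The genotypes overlapped on both diets, and WT females were high in some libraries and low in others. Tm7sf2 in males on the WD had 23.5, 23.2, 13.9 and 13 CPM in KO mice, against 35.8, 22.1, 32.6 and 30.1 CPM in WT mice, with overlap and a log2 fold change of −0.69 (SE 0.22, adjusted p = 0.464). Srebf2 in males on the CD had 55.7, 55.5, 51.6 and 47.5 CPM in KO mice, against 80.9, 68.9, 55.7 and 64.1 CPM in WT mice. The highest KO library and the lowest WT library were level, and the log2 fold change was −0.35 (SE 0.12, adjusted p = 0.495).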

How the data were processed

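Liver RNA of 32 mice was sequenced as paired-end mRNA libraries. The authors quantified transcripts with Salmon 1.3.0, and the deposited values are estimated counts and TPM per transcript. Estimated counts were summed per gene over 115973 of 117135 transcripts, those in the annotation of GRCm38 used here, which left out between 0.315% and 0.424% of counts, and were rounded. TPM, computed by the authors, were summed per gene and used only for levels between genes. CPM are counts scaled to normalized library size (the total adjusted by TMM).

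Each pair of groups was fitted with edgeR 4.0.16 (R 4.3.3; TMM, quasi-likelihood test) after dropping genes that did not reach 10 counts in 4 of the 8 libraries, and contrasts in a model of 32 libraries. P-values were adjusted over all genes (Benjamini-Hochberg, threshold 0.05). The SE given with a log2 fold change is its absolute value divided by the square root of the F statistic of edgeR's test. The scripts were tested on simulated data. Totals of at least 10140048 counts per library leave the counts of the lowest genes, such as Sqle on the WD, as the least precise. The labels do not say more than that the libraries are separate samples, so p-values measure the spread between these samples.

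All 27 genes are reported. Values of every library are given for the 6 with the lowest and the 4 with the highest mean diet effect in males, the 4 regulators, and up to 4 with the smallest p among those called in the other comparisons. Cyp51, the female diet values and the genotype values of genes without a call were named after their values were seen. Similar genes are the 10 with the highest correlation with the mean of the members. The members and lists were chosen with earlier results of these data known. Alternatives were RLE size factors, transcript length offsets, no filter, a replicate block, removal of a length trend, the model of 32 libraries, DESeq2 1.42.0, leaving out libraries with acinar transcripts, and leaving out each library. Some single genes are not reported here.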

Additional observations from a re-analysis of the deposited data

Results flagged for a closer look

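Of 216 sets of 4 libraries (27 genes in 8 groups), 5 held 1 library set far apart from the other three by Dixon's test, and chance gives about 1 in 20. In KO females on the CD, replicate 1 was low for Hmgcs1 (219 CPM), Msmo1 (47.8 CPM) and Srebf2 (45.3 CPM). In KO males on the CD, replicate 4 was low for Tm7sf2 (59.6 CPM). In KO males on the WD, replicate 1 was high for Sqle (2.23 CPM, from 28 estimated counts).

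The diet effect on Sqle differed between the sexes by 3.92 on the log2 scale, females minus males (SE 0.80, adjusted p = 0.0312 in edgeR's quasi-likelihood test over 32 libraries). Over alternatives other than leaving out 1 library the adjusted p was between 3.9e-05 and 0.048, and over fits without 1 library between 0.00772 and 0.066.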

How the results depend on the processing

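The diet counts in KO males and WT males stayed within 1.5 times under every alternative other than leaving out 1 library. Without 1 library they were 12 to 21 and 20 to 23. No called value changed direction: 399 kept their call under the alternatives and 30 lost it, and 318 kept it without 1 library and 106 lost it. In KO females the diet count of 0 was 1 without libraries with acinar transcripts, 8 with DESeq2 and 5 with DESeq2 and length offsets, and 0 to 1 without 1 library. In females on the WD the genotype count of 0 was 1 without libraries with acinar transcripts. Between the sexes in KO mice on the CD, the count of 0 was 1 with RLE size factors, 1 with length offsets, 2 with the length trend removed and 2 with DESeq2 with or without offsets, and 0 to 1 without 1 library. In KO mice on the WD, the count of 5 was 3 with no filter, 3 with the length trend removed, 13 without libraries with acinar transcripts, 12 with DESeq2 and 11 with offsets, and 0 to 13 without 1 library. In WT mice on the CD, the count of 1 was 0 in the model of 32 libraries, with the length trend removed, without the 4 libraries above 100 CPM of acinar transcripts and without any 1 library (0 to 0), and 2 with DESeq2 with or without offsets. In WT mice on the WD, the count of 0 was 5 in the model of 32 libraries, 1 with the length trend removed, 5 without those 4 libraries and 6 with DESeq2 with or without offsets, and 0 to 5 without 1 library. For the difference between the sexes in the diet effect, the count of 1 was 3 without those 4 libraries, 7 with DESeq2 with or without offsets and 0 to 5 without 1 library. The cause was not tested. All other counts were 0 under every alternative run.

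Over all pairs of groups, deviations of same-numbered libraries correlated at a mean of 0.00653 and those of other numbers at −0.00185. Single pairs ran from −0.45 to 0.34 for the same number and from −0.33 to 0.39 for other numbers. Such means do not test pairing within a single comparison. With the replicate block, the counts between the sexes were 13 in KO mice on the WD, 0 in WT mice on the CD and 8 in WT mice on the WD, and 2 for the difference in the diet effect. The planned removal of libraries with acinar transcripts could not be fitted where it took all WT females on the CD. Depth limits the lowest values, such as Fdft1 at 5 and Sqle at 8 estimated counts.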
